A study of Mus musculus with 20 samples.

Results

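The nuclear-encoded genes of oxidative phosphorylation were examined in single mouse embryos at the 8C stage (E2.5) that lacked or carried the maternal pool of G9a, the histone H3 lysine 9 methyltransferase encoded by Ehmt2. Members were taken by gene symbol: every subunit of complexes I to V with a symbol beginning Nduf, Sdh, Uqcr, Cox4 to Cox8 or Atp5, cytochrome c (Cycs), and the assembly factors named Ndufaf or Cox10 to Cox19. The rule gave 102 of the 34937 genes counted, namely 38 of complex I, 4 of complex II, 8 of complex III, 18 of complex IV, 17 of complex V, Cycs and 16 assembly factors. The rule reads symbols alone. Cyc1, a catalytic subunit of complex III, and the Uqcc assembly factors have symbols outside the rule and are described with the other genes of the pathway.

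The 9 control embryos (Ehmt2Cntr) came from Ehmt2F/+ females and the 10 maternally depleted embryos (Ehmt2Mat) from Ehmt2F/- females. All of these mothers carried Zp3-Cre, which recombines the floxed allele in the growing oocyte, and all were mated with Ehmt2+/- males on a mixed background. The zygotic genotype was +/+ in 6 and +/- in 3 controls. It was +/- in 5 Ehmt2Mat embryos (Ehmt2M/+) and -/- in the other 5 (Ehmt2M/Z), so the maternal and zygotic copies of the gene partly moved together. Each embryo was 1 library. Zonae were removed, embryos of normal morphology were used, and a control numbered 4 was not analysed here. Nothing in the labels gives the litter or the day of collection.

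Oxidative phosphorylation takes place in the inner mitochondrial membrane. Complex I takes electrons from NADH and complex II from succinate, complex III passes them to cytochrome c, and complex IV hands them to oxygen. Complexes I, III and IV pump protons, and complex V, the ATP synthase, uses the returning protons to make ATP. Complexes I, III, IV and V each hold some subunits encoded by mitochondrial DNA. The subunits examined here are made from nuclear mRNA, imported and fitted together by assembly factors. Cleavage embryos rely on mitochondria inherited from the oocyte, which have few cristae, and take up pyruvate as a main fuel before glycolysis increases toward the blastocyst.

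Total counts per embryo were between 8231646 and 30602434, and 3 counts, taken as the floor of detection, were worth 0.098 to 0.364 CPM, which are counts scaled to the size of the library. Ehmt2 itself had 66.3 to 252 CPM in controls (median 133) and 58.5 to 159 CPM in Ehmt2Mat embryos (median 94.5), with a log2 fold change of -0.47 (SE 0.24, adjusted p = 0.23). These counts are summed over all exons, so they do not show whether the deleted part of the allele was transcribed. Of 6 cleavage-embryo markers all were detected in every embryo (Klf5 and Sall4 fell, Tfap2c rose), and 1 of 7 tested oocyte markers was called, Oosp1, which rose, whereas the cumulus markers Ptx3, Has2, Foxl2 and Fshr were at 0 throughout. Ovgp1, which encodes the glycoprotein secreted by oviduct epithelium, was the marker of another cell type that stood out, at 0.045 to 29.6 CPM in 8 controls, 370 CPM in control 10 and 9.56 to 2788 CPM in Ehmt2Mat embryos (median 103). The other oviduct markers reached 3.26 CPM for Foxj1 and 27.3 CPM for Pax8, the cumulus list summed to at most 30.5 CPM, nearly all of it Cyp11a1, and the blood list to at most 7.45 CPM. The part of these transcripts in the results was not tested, and counts without the 6 embryos above 100 CPM of Ovgp1 are given beside the results that they change.

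The members took 0.547 to 0.948% of the counts of an embryo. In controls 18 members had a mean above 100 CPM, 64 lay between 10 and 100 CPM, 14 between 1 and 10 CPM and 6 at or below 1 CPM. The median of the 97 members that passed the filter on low counts was 35.87 CPM, against 20.95 CPM for all genes tested, as shares of reads and not per length. Their levels also varied less between control embryos, with a median SD of 0.523 on the log2(CPM + 1) scale against 0.824 over all genes tested. Genes matched to the members for level were not compared. The 5 members that did not pass the filter were Atp5g2, Cox6a2, Cox8b, Cox8c and Ndufa4l2, each a paralog of a subunit gene that was measured. Complex V alone took 47.5% of the CPM of the members, complex I 19.5%, complex IV 14.0% and complex III 9.34%. Per kilobase of exon the highest control means were those of Cox5a (356 RPKM), Cox8a (316 RPKM), Atp5b (286 RPKM), Cox6a1 (264 RPKM) and Atp5a1 (246 RPKM). The cDNA was biased toward 3′ ends, so values per kilobase rank long transcripts too low.

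The comparison of Ehmt2Mat with Ehmt2Cntr embryos addressed whether these genes changed without maternal G9a. Most did not pass the test. Of the 97 members tested 7 passed an adjusted p of 0.05, which is 7.22% against 9.35% of all 11754 genes tested. Cox7b2 and Ndufa9 rose, 2 members where 4.37% of all genes were called higher, but Cox7b2 entered the test only through the Ehmt2Mat embryos, and with no filter on low counts Ndufa9 was the 1 higher call. Cox5a, Uqcrfs1, Cox11, Atp5mpl and Ndufaf6 fell, 5 members where 4.98% of all genes were called lower. These shares are near the background. At an unadjusted p under 0.05 there were 22 members, 22.7% against 23.3% of all genes. Log2 fold changes were positive for 52 members and negative for 45, with a median of 0.05 against -0.04 over all genes. In no member did the groups fail to overlap, a pattern seen in 0.519% of genes tested. DESeq2 called 14 of the members (7 higher, 7 lower), 6 of them shared with the 7 above, where it called 15.1% of all genes. Without the 6 embryos rich in Ovgp1 the test called 5 members (3 higher, 2 lower) and 2.69% of all genes, and Cox5a, Uqcrfs1 and Ndufa9 remained.

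**Figure D1:**
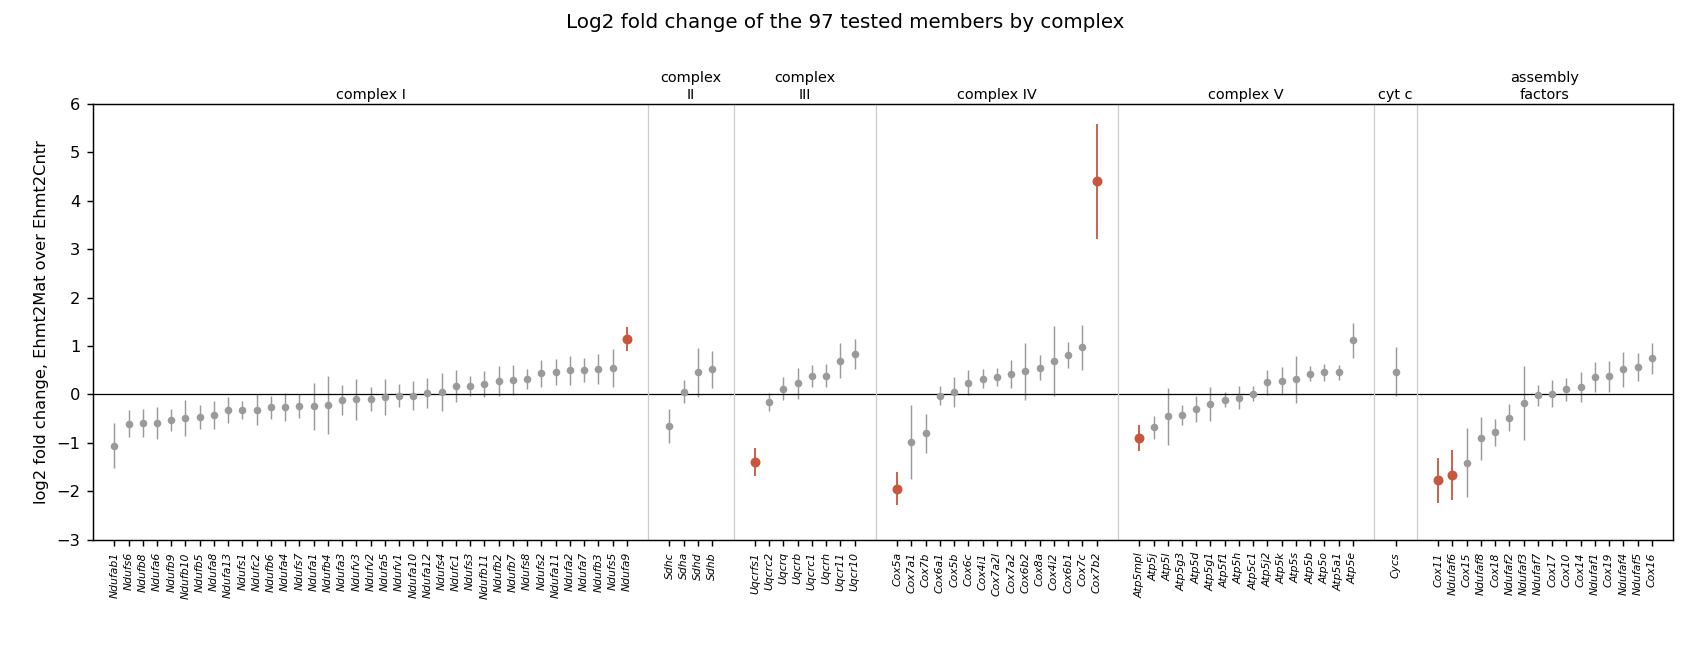
Log2 fold change of each of the 97 members tested, Ehmt2Mat over Ehmt2Cntr, on the vertical axis, grouped by complex; points are estimates, bars are 1 SE, and red marks the 7 members past an adjusted p of 0.05. Estimates fall on both sides of 0 in each complex, and Cox7b2, at 4.40, has the widest SE among the red points (1.19).

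The 2 smallest adjusted p-values among members belonged to Cox5a and Uqcrfs1, both lower in Ehmt2Mat embryos. Cox5a (chr9:57521232-57532424 on GRCm38), a structural subunit that joins complex IV early in its assembly, had 35.2 to 389 CPM in controls (median 284) and 34.9 to 141 CPM in Ehmt2Mat embryos (median 51.2). Every Ehmt2Mat embryo was below the control median, and 8 controls, at 147 CPM or more, were above all 10 of them. Control 10, at 35.2 CPM, sat among the Ehmt2Mat embryos, and it was also the control with the highest Ovgp1. The log2 fold change of Cox5a was -1.95 (SE 0.34, adjusted p = 0.0010), or 3.86-fold lower, and without control 10 it was -2.09 (adjusted p = 1.05e-04). In the 13 embryos low in Ovgp1 it was -1.71 (adjusted p = 0.013). Of the exonic bases of Cox5a 38.7% are shared with Gm26631 on the opposite strand. Counting ignored strand and gave a read to every gene it overlapped, and Gm26631 fell as well (log2 fold change -1.74, SE 0.35, adjusted p = 0.0032), so reads of both cannot be told apart there.

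Uqcrfs1, on chromosome 13, encodes the Rieske iron-sulfur protein that receives electrons from ubiquinol in complex III. It had 92.2 to 370 CPM in controls (median 225) and 41.5 to 153 CPM in Ehmt2Mat embryos (median 63.0). All 10 Ehmt2Mat embryos were below the control median and 6 were below the lowest control, which was again control 10. Control 6, at 100 CPM and with 2.17 CPM of Ovgp1, was also within the range of the Ehmt2Mat embryos. Uqcrfs1 fell by 1.40 on the log2 scale (SE 0.29, adjusted p = 0.0039), and by 1.27 in the embryos low in Ovgp1 (adjusted p = 0.043). None of its 50-base windows occurs in another annotated transcript.

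**Figure D2:**
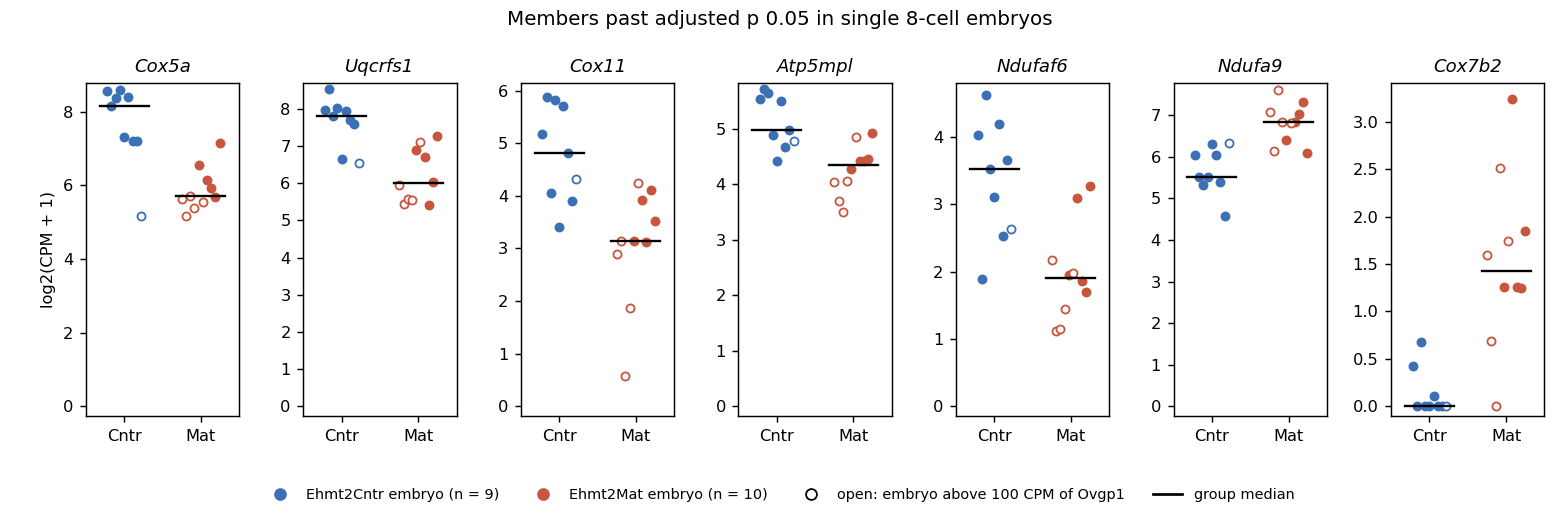
The 7 members past an adjusted p of 0.05 in each embryo, as log2(CPM + 1) on the vertical axis with a scale of its own in each panel; blue points are the 9 Ehmt2Cntr embryos, red points the 10 Ehmt2Mat embryos, open points embryos above 100 CPM of Ovgp1 and bars medians. The open control point, control 10, lies among the Ehmt2Mat embryos for Cox5a (35.2 CPM) and Uqcrfs1 (92.2 CPM). Control 6, a filled point, does so too for Uqcrfs1 (100 CPM), and the groups overlap in every panel.

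The other 3 members that fell, at 8.89 to 97.6 RPKM in controls, had lower levels per kilobase. Cox11, which delivers copper to the catalytic Cox1 subunit of complex IV, had 9.55 to 57.7 CPM in controls (median 27.0) and 0.483 to 18.0 CPM in Ehmt2Mat embryos (median 7.83), with 6 of 10 below the lowest control (log2 fold change -1.78, SE 0.47, adjusted p = 0.019). Of its exonic bases 48.4% are shared with Tom1l1 on the opposite strand, which had a log2 fold change of -0.71 (SE 0.31, adjusted p = 0.16). Atp5mpl, a small membrane-embedded proteolipid of the ATP synthase, had 20.4 to 51.3 CPM in controls (median 30.5) and 10.3 to 29.3 CPM in Ehmt2Mat embryos (median 19.3). Its log2 fold change was -0.90 (SE 0.27, adjusted p = 0.033), and all Ehmt2Mat embryos were below the control median. Ndufaf6, a factor for an early step of complex I assembly, had 2.70 to 23.7 CPM in controls (median 10.5) and 1.17 to 8.66 CPM in Ehmt2Mat embryos (median 2.75), and its log2 fold change was -1.67 (SE 0.52, adjusted p = 0.045). In the embryos low in Ovgp1 the adjusted p of these 3 was 0.10 for Cox11, 0.27 for Atp5mpl and 0.36 for Ndufaf6. The calls of Atp5mpl and Ndufaf6 stood when 1 embryo was left out in 11 and 5 of 19 cases, with adjusted p up to 0.063 and 0.098.

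Ndufa9, an accessory subunit at the junction of the matrix and membrane arms of complex I, rose. It had 23.0 to 79.6 CPM in controls (median 44.5) and 67.0 to 195 CPM in Ehmt2Mat embryos (median 113). All 10 Ehmt2Mat embryos exceeded the control median and 8 exceeded the highest control, which was control 10, with control 6 next at 78.6 CPM. The log2 fold change was 1.14 (SE 0.25, adjusted p = 0.0048), and in the embryos low in Ovgp1 it was 1.14 (adjusted p = 0.047).

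Cox7b2, an isoform of a small complex IV subunit best known from testis, was near the floor in controls. It was at 0 in 6 controls and had 1 to 10 reads in the other 3, a range of 0 to 0.600 CPM. Ehmt2Mat embryos had 0 to 8.49 CPM (median 1.71), which is up to 175 reads, and 9 of 10 exceeded the highest control. The mean was 0.114 CPM in controls and 2.495 CPM in Ehmt2Mat embryos (log2 fold change 4.40, SE 1.19, adjusted p = 0.020). It passed the filter on low counts through the Ehmt2Mat embryos, with 9 over the limit where 9 were needed and 1 control over it, so the test had to find it higher if it found anything. With no filter its adjusted p was 0.052, and a filter of 10 counts per embryo removed it. It was the 1 tested member of 97 that owed its place to one group in this way. The fitted fold depends on the prior count because most controls were at 0, and it ran from 2.13 to 5.94 over the alternatives and was 5.45 without control 3. The Ehmt2Mat embryo at 0, number 3, was the one with the most Ovgp1. DESeq2 gave this gene no adjusted p, and the adjusted p in the embryos low in Ovgp1 was 0.10. None of its 50-base windows occurs in another annotated transcript.

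The genomic sequence around the annotated start of these genes is shown because 2 of them fell and 2 rose. Each window runs from 250 bases before to 50 bases after the start in RefSeq on GRCm38.p6, read 5′ to 3′ on the strand of the gene. Capitals mark the core of an SP1 site, as GGGCGG in Cox7b2 and as its reverse complement CCGCCC in Cox5a, and the core of a YY1 site, AAGATGG, in Ndufa9. Cox5a lies on the plus strand (chr9:57520982-57521281), Uqcrfs1 on the minus strand (chr13:30545267-30545566), Ndufa9 on the minus strand (chr6:126849095-126849394) and Cox7b2 on the minus strand (chr5:71548156-71548455).
Cox5a: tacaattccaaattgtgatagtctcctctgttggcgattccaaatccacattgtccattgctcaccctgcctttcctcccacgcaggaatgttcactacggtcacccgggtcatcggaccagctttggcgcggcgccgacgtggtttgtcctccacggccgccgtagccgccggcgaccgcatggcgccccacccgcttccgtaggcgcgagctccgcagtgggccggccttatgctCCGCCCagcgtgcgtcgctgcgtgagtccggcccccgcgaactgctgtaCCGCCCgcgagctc
Uqcrfs1: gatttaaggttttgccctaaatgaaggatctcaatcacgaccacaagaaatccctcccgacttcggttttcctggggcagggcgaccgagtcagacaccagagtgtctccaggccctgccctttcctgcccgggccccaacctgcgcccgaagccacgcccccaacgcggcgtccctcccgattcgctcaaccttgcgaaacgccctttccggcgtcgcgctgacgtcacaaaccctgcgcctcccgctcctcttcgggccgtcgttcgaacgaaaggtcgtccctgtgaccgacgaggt
Ndufa9: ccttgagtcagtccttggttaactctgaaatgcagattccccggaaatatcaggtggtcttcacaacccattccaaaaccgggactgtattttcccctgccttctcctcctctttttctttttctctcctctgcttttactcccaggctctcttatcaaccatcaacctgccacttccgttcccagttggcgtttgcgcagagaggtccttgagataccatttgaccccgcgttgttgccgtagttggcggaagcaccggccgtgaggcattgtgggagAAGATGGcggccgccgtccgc
Cox7b2: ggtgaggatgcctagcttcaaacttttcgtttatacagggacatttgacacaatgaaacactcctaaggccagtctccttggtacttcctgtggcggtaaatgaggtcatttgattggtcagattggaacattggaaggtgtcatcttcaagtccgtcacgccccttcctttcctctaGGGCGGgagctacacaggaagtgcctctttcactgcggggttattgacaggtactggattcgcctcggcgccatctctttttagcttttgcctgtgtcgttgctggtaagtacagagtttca
Uqcrfs1 and Cox11 held none of the motifs searched, and Atp5mpl and Ndufaf6 had no sequence in the table. Over all 83 members with a window, the NRF1 motif, searched like the others on both strands, was found in 22.89% against 5.19% of 27025 genes. CCGGAAG, the core of ETS sites such as those of GABP, was found in 26.51% against 9.93%, AAGATGG in 15.66% against 7.28%, and GGGCGG in 48.19% against 38.2%. Nrf1 and the GABP subunit genes are long known as regulators of respiratory genes. None of the 5 called members with a window held the NRF1 motif or CCGGAAG. A match of letters is a description and not a binding site.

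Complex I showed 1 call among 37 members tested, Ndufa9, which is 2.70% against 9.35% of all genes. DESeq2 also called 1, where it called 15.1% of all genes. At an unadjusted p under 0.05 there were 4 members, 10.8% against 23.3% of all genes. The 7 conserved core subunits of complex I encoded in the nucleus, which carry the flavin and the iron-sulfur clusters, had log2 fold changes of -0.33 to 0.43. Of these 7, 0 were called by edgeR, by DESeq2 or at an unadjusted p under 0.05. Ndufs1, an iron-sulfur core subunit that took the largest share of complex I reads, had 112 to 204 CPM in controls (median 157) and 65.8 to 163 CPM in Ehmt2Mat embryos (median 133), with a log2 fold change of -0.33 (SE 0.18, adjusted p = 0.28). Ndufv1, which binds the flavin, had medians of 69.4 and 69.9 CPM (log2 fold change -0.03, SE 0.23). Among the 30 accessory subunits tested the log2 fold changes ran from -1.06 for Ndufab1, the mitochondrial acyl carrier protein (SE 0.46, adjusted p = 0.16), to 1.14 for Ndufa9. Ndufa4 is counted here by its symbol, although its protein is now placed in complex IV. It had medians of 42.2 CPM in controls and 29.3 CPM in Ehmt2Mat embryos (log2 fold change -0.26, SE 0.29).

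Complex II had no call among 4 members by edgeR, none at an unadjusted p under 0.05 and none by DESeq2. Over all genes these shares were 9.35%, 23.3% and 15.1%, in that order. Sdha, the flavoprotein that oxidises succinate, had medians of 112 and 113 CPM (log2 fold change 0.05, SE 0.23), and its interval of 2 SE ran from -0.41 to 0.52. Sdhb, the iron-sulfur subunit, had 2.25 to 35.0 CPM in controls and 7.34 to 60.2 CPM in Ehmt2Mat embryos (log2 fold change 0.52, SE 0.38, adjusted p = 0.45). The lowest value was that of 1 control, number 2, and the next was 23.2 CPM. Of the membrane anchors, Sdhc had a log2 fold change of -0.65 (SE 0.35) and Sdhd 0.45 (SE 0.51).

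In complex III Uqcrfs1 was the 1 call among 8 members, 12.5% against 9.35% of all genes. Uqcrc1, a core protein on the matrix side, had 93.4 to 323 CPM in controls (median 147) and 90.5 to 317 CPM in Ehmt2Mat embryos (median 218), with a log2 fold change of 0.38 (SE 0.23, adjusted p = 0.34). Its partner Uqcrc2 had a log2 fold change of -0.15 (SE 0.19). Uqcr10 had the highest estimate of the complex, 0.83 (SE 0.31, adjusted p = 0.093). DESeq2 and the embryos low in Ovgp1 placed Uqcr10 past the threshold. It is named after its values were seen.

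Complex IV held the lowest and the highest log2 fold change of all members, those of Cox5a and Cox7b2, among 15 tested. These were its 2 calls, 13.3% against 9.35% of all genes. Cox4i1, the regulatory subunit that binds next to Cox5a, had 74.7 to 234 CPM in controls (median 167) and 159 to 275 CPM in Ehmt2Mat embryos (median 201). Its log2 fold change was 0.32 (SE 0.20, adjusted p = 0.36). Cox6b1, which faces the intermembrane space, had 20.05 to 86.4 CPM in controls (median 53.5) and 40.8 to 154 CPM in Ehmt2Mat embryos (median 96.4). It missed the threshold in the main test (log2 fold change 0.81, SE 0.26, adjusted p = 0.052) and passed it with DESeq2 (adjusted p = 0.020). Cox6a1 had medians of 179 and 186 CPM (log2 fold change -0.02, SE 0.19), and its sign changed with the processing. Cox8a had medians of 153 and 225 CPM (log2 fold change 0.55, SE 0.26, adjusted p = 0.20).

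Several complex IV subunits are encoded by paralogs of which one is widespread and others belong to muscle, lung or testis, and the embryos held more mRNA of the widespread forms. Per kilobase of exon, control means were 106 RPKM for Cox4i1 and 4.41 RPKM for Cox4i2, the lung form. They were 106 RPKM for Cox6b1 and 3.92 RPKM for Cox6b2, a testis form. Cox7a1, a muscle form, had 4.49 RPKM against 51.3 RPKM for Cox7a2 and 92.4 RPKM for Cox7a2l, a factor of respiratory supercomplexes. Cox8b had no read in any embryo, Cox8c, a testis form, reached 1.93 CPM in controls and 2.30 CPM in Ehmt2Mat embryos, and Cox6a2, a muscle form, had 0 reads in controls and at most 2.21 CPM in Ehmt2Mat embryos. Ndufa4l2, known from hypoxia, reached 0.180 CPM. Of the 4 tissue isoforms of complex IV that were tested, the other 3 did not pass: Cox4i2 had a log2 fold change of 0.69 (SE 0.72), Cox6b2 0.47 (SE 0.58) and Cox7a1 -0.99 (SE 0.76).

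Cox7b, the widespread counterpart of Cox7b2, had 3.29 to 24.0 CPM in controls (median 15.0) and 4.56 to 13.6 CPM in Ehmt2Mat embryos (median 7.63), with a log2 fold change of -0.80 (SE 0.40, adjusted p = 0.23). Per kilobase the pair had means of 12.1 and 0.210 RPKM in controls and of 6.92 and 4.603 RPKM in Ehmt2Mat embryos, in that order. The last mean includes Ehmt2Mat embryo 7, the highest, at 8.49 CPM of Cox7b2. Cox7b was not called, and Cox7b2 passed the filter on low counts only through the Ehmt2Mat embryos. A shift between the 2 isoforms was not tested. The c subunit of the ATP synthase ring is made from 3 genes for the same mature protein. Atp5g3 had 95.1 RPKM in controls, against 1.72 RPKM for Atp5g1 and 0.266 RPKM for Atp5g2. The share of 50-base windows found in other annotated transcripts was 0% for Atp5g3, 11.1% for Atp5g1 and 38.4% for Atp5g2. Atp5g1 was also divided by 4912 exonic bases, against 2181 for Atp5g3. The gap in level between these genes is therefore uncertain. Atp5g3 had a log2 fold change of -0.43 (SE 0.20, adjusted p = 0.21) and Atp5g1 -0.19 (SE 0.35).

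**Figure D3:**
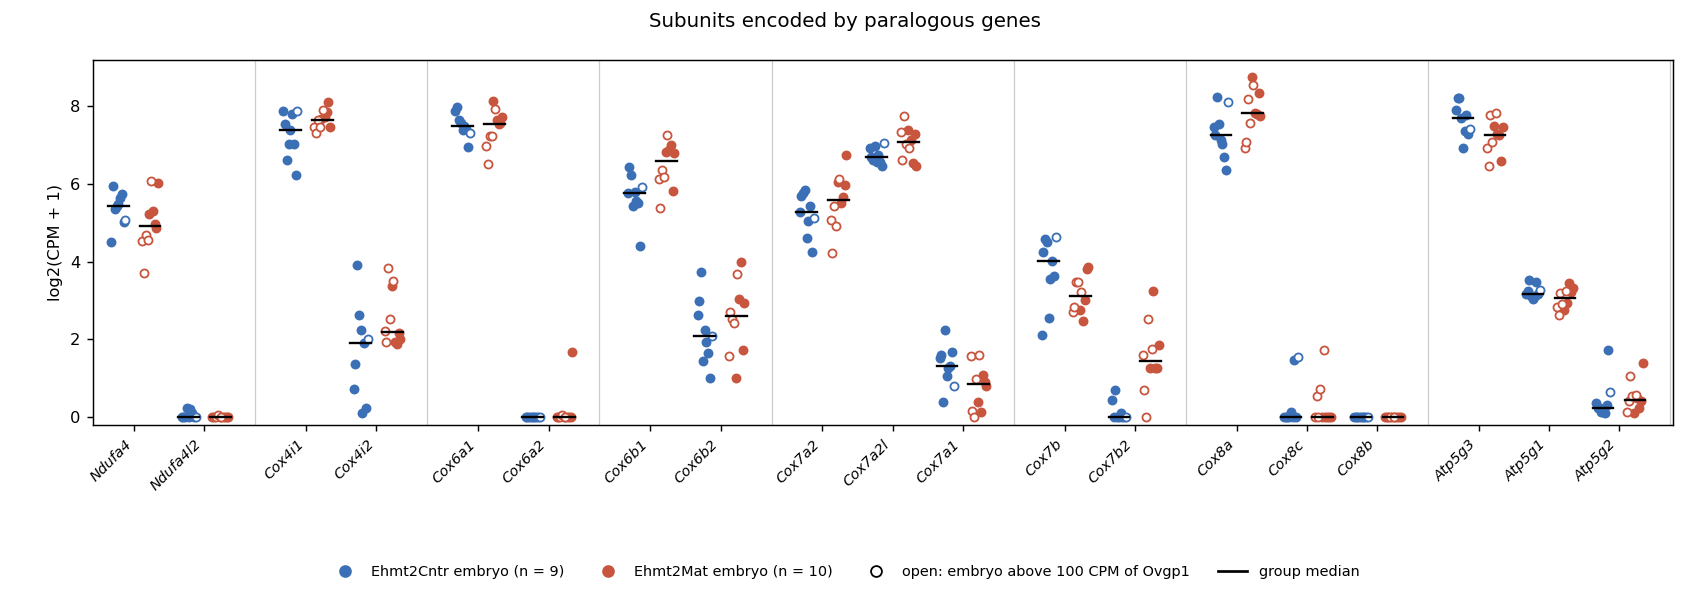
Subunits encoded by paralogous genes, in each embryo as log2(CPM + 1) on the vertical axis, with families separated by lines; blue points are Ehmt2Cntr (n = 9), red points Ehmt2Mat (n = 10), open points embryos above 100 CPM of Ovgp1 and bars medians. Cox7b2 is above 0 in 3 of 9 controls and 9 of 10 Ehmt2Mat embryos, and Cox8b is at 0 in all.

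Complex V took the most reads, and its log2 fold changes fell on both sides of 0, 8 positive and 8 negative. Of its 16 members tested 1 passed the edgeR test, 6.25% against 9.35% of all genes. At an unadjusted p under 0.05 there were 7 members, 43.75% against 23.3% of all genes. DESeq2 called 6 of the 16, where it called 15.1% of all genes. In the F1 head, which makes ATP, 0 of 5 members passed the edgeR test, 3 had an unadjusted p under 0.05 and DESeq2 called 3, all with positive estimates. Atp5b, the catalytic beta subunit, had 763 to 1581 CPM in controls (median 1215) and 1209 to 2283 CPM in Ehmt2Mat embryos (median 1520). Its log2 fold change was 0.43 (SE 0.16, adjusted p = 0.086), and 9 of 10 Ehmt2Mat embryos were above the control median. Atp5a1, the alpha subunit, had 420 to 899 CPM in controls (median 813) and 783 to 1441 CPM in Ehmt2Mat embryos (median 1057), with 8 of 10 above the highest control (log2 fold change 0.46, SE 0.15, adjusted p = 0.060). DESeq2 placed both past the threshold, with adjusted p of 0.046 and 0.025. Atp5e, the epsilon subunit, named after its values were seen, had a log2 fold change of 1.12 (SE 0.36, adjusted p = 0.051), whereas gamma (Atp5c1) had 0.02 (SE 0.16) and delta (Atp5d) -0.31 (SE 0.27).

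In the peripheral stalk, which holds the head still, Atp5o had a log2 fold change of 0.46 (SE 0.18, adjusted p = 0.10) and Atp5j of -0.68 (SE 0.24, adjusted p = 0.067). These are also named after their values were seen. Of the exonic bases of Atp5o 44.0% are shared with other genes. Atp5f1 and Atp5h had log2 fold changes of -0.11 (SE 0.15) and -0.07 (SE 0.24). Atp5mpl was the only one of the 16 complex V members tested that passed the threshold in the main test.

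Cycs, the soluble electron carrier between complexes III and IV, was counted at a low level, 1.44 to 6.08 CPM in controls (median 3.68) and 1.93 to 9.00 CPM in Ehmt2Mat embryos (median 5.26). Its log2 fold change was 0.47 (SE 0.51, adjusted p = 0.65). Of the 50-base windows of Cycs 26.2% occur in other annotated transcripts, so its level is uncertain where the alignment dropped or spread such reads. Among the 16 assembly factors Cox11 and Ndufaf6 fell, 12.5% called against 9.35% of all genes. Ndufaf7, the methyltransferase that modifies a core complex I subunit and the assembly factor with the most reads, had medians of 71.8 and 70.0 CPM (log2 fold change -0.02, SE 0.21). The 8 Ndufaf genes had log2 fold changes between -1.67 and 0.57, and the 8 genes from Cox10 to Cox19 between -1.78 and 0.74.

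The summed CPM of each complex describes its share of the reads of an embryo, with no test over the members. With the SD over embryos (n = 9 controls and 10 Ehmt2Mat), complex V summed to 3605 ± 622 CPM and 4170 ± 648 CPM, in that order, a log2 difference of 0.22 where the SD between controls was 0.27. The sum was above the control median in 9 of 10 Ehmt2Mat embryos. Complex I summed to 1477 ± 214 and 1440 ± 308 CPM, complex II to 212 ± 48.8 and 212 ± 66.4 CPM, and complex III to 708 ± 144 and 669 ± 133 CPM. Complex IV summed to 1058 ± 243 and 1092 ± 262 CPM and the assembly factors to 518 ± 81.8 and 521 ± 93.5 CPM. Each log2 difference was smaller than the SD between control embryos. Uqcrfs1 and Cox5a made up 30.4% of the complex III sum and 23.2% of the complex IV sum in controls. In these libraries fewer cells in an embryo and less RNA per cell cannot be told apart, since each value is a share of 1 library.

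**Figure D4:**
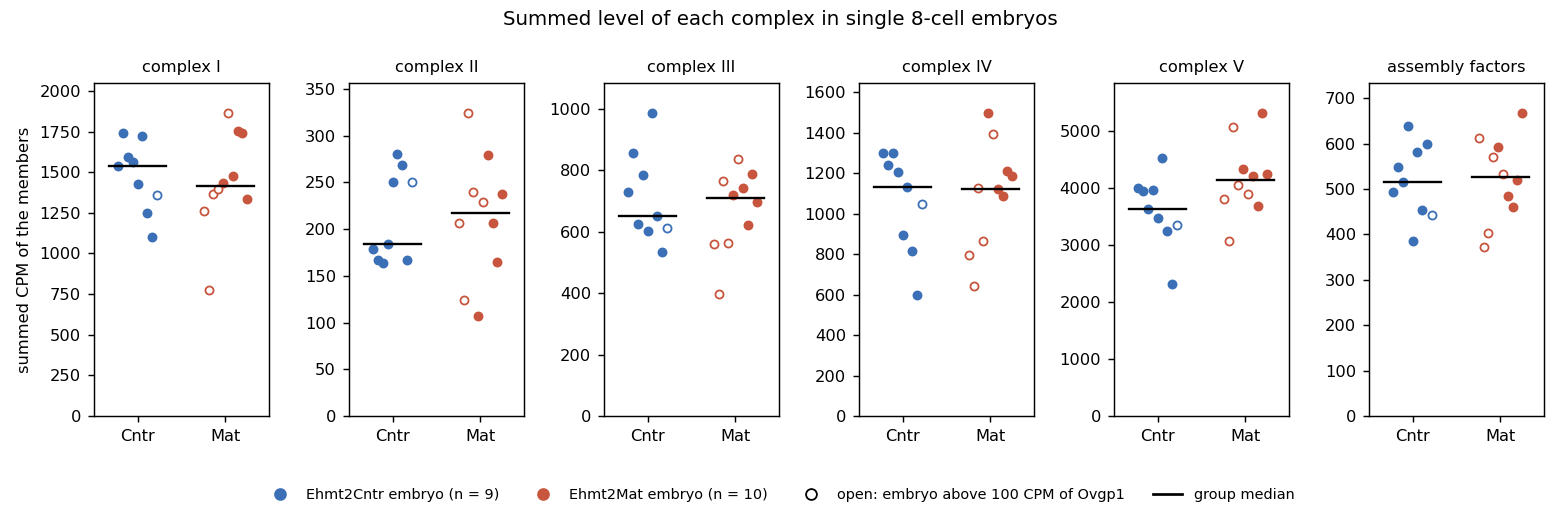
Summed CPM of the members of each complex and of the assembly factors in each embryo, on a vertical axis that starts at 0; blue points are Ehmt2Cntr (n = 9), red points Ehmt2Mat (n = 10), open points embryos above 100 CPM of Ovgp1 and bars medians. The groups overlap in every panel, and complex V has medians of 3628 and 4137 CPM.

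The Ehmt2M/Z and Ehmt2M/+ embryos were compared to ask whether the zygotic copy of Ehmt2 mattered once the maternal pool was gone. No member was called by edgeR among 97 tested, where 0 of 12195 genes were called (0%). No member had an unadjusted p under 0.05, against 2.21% of all genes. DESeq2 called no member and 3 genes in all, and 1 member, Cox6b2, had an unadjusted p under 0.05 there. Log2 fold changes of members ran from -1.37 to 1.36 with a median SE of 0.40, which limits what 5 against 5 embryos can show. Cox5a had 34.9 to 141 CPM (median 51.8) in Ehmt2M/+ and 40.7 to 93.2 CPM (median 50.6) in Ehmt2M/Z embryos, and the groups overlapped. Ndufa9 had medians of 112 and 113 CPM in the same order. Cox7b2 had medians of 1.39 and 2.03 CPM in the same order, with the embryo at 0 among Ehmt2M/+.

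With the zygotic genotype held at +/-, 3 controls and 5 Ehmt2Mat embryos remained, and edgeR called no member and 1 of 13401 genes. At an unadjusted p under 0.05 there were 4 members and 906 genes (6.76%). The log2 fold changes of the 7 called members kept their sign in these embryos, with -1.90 for Cox5a (SE 0.62), -1.18 for Uqcrfs1 (SE 0.51), 0.88 for Ndufa9 (SE 0.43) and -1.39 for Cox11 (SE 0.84). Atp5mpl had -1.03 (SE 0.52), Ndufaf6 -2.15 (SE 0.96) and Cox7b2 2.13 (SE 2.02), and the SE of each was larger than with all 19 embryos. These embryos are among the 19 that selected the 7 members, so kept signs were likely beforehand and are no separate evidence.

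Other genes of the pathway were described from lists by role. Over all genes edgeR called 9.35% and DESeq2 15.1%, and 23.3% had an unadjusted p under 0.05 with edgeR. Cyc1, cytochrome c1, which takes the electron from the Rieske protein, fell: it had 54.4 to 250 CPM in controls (median 120) and 43.2 to 103 CPM in Ehmt2Mat embryos (median 67.9). Its log2 fold change was -0.85 (SE 0.27, adjusted p = 0.047), and it was the 1 of 6 tested genes of complex III outside the rule that was called. Of 15 tested assembly genes of complex IV outside the rule, Coa5 fell, from a median of 101 CPM to 44.4 CPM (log2 fold change -1.01, SE 0.25, adjusted p = 0.011), with 8 of 10 Ehmt2Mat embryos below the lowest control. None of 7 assembly genes of complex I, 3 of complex II and 4 of complex V, nor of 15 genes of cytochrome c and ubiquinone, passed the edgeR test. At an unadjusted p under 0.05 there were 0, 0, 3 and 4 of them, and DESeq2 called 0, 0, 3 and 0. Cyc1 kept its call in 7 of 19 fits that left out 1 embryo, with adjusted p up to 0.12, and Coa5 in all 19. Without the embryos rich in Ovgp1 the adjusted p was 0.16 for Cyc1 and 0.012 for Coa5.

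Of 13 subunit genes of the mitochondrial genome, 8 were tested and none was called by edgeR, with 2 at an unadjusted p under 0.05 and 2 called by DESeq2. All 8 log2 fold changes were negative, with a median of -0.35. The other 5, mt-Co2, mt-Co3, mt-Atp6, mt-Atp8 and mt-Nd4l, are listed at 0 in every embryo. The mitochondrial genes took 6.47 to 21.7% of the counts, with means of 12.6% in controls and 13.5% in Ehmt2Mat embryos. The summed CPM of the listed mitochondrial subunits differed by -0.19 on the log2 scale, where the SD between controls was 0.66. In 5 of 10 Ehmt2Mat embryos that sum was above the control median, so the shared sign was not seen as a fall in most embryos. Scaling to totals without the mitochondrial genes called 9 members (4 higher, 5 lower), adding Atp5a1 and Cox6b1. These are 9.28% of the members tested, against 9.41% of all genes. Among 11 tested regulators of respiratory genes Tfb2m, which starts transcription of mitochondrial DNA, rose from a median of 21.3 CPM to 47.5 CPM (log2 fold change 0.88, SE 0.27, adjusted p = 0.039). Its call stood in 6 of 19 fits that left out 1 embryo, and its adjusted p was 0.22 without the embryos rich in Ovgp1. Nrf1 had medians of 245 and 232 CPM (log2 fold change -0.09, SE 0.18), and Ppargc1a had no read in controls.

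Of 14 nuclear genes for mitochondrial proteins, listed as mitochondrial content, 6 were called, 4 lower and 2 higher, which is 42.9% against 9.35% of all genes. Among the 11 that are not carriers 2 were called higher and 2 lower. The mRNA of these 14 genes does not measure the amount of mitochondria, which was not examined. Log2 fold changes were negative for 10 of the 14, with a median of -0.38. Their summed CPM was 4183 in controls and 3263 in Ehmt2Mat embryos on average, a log2 difference of -0.34 where the SD between controls was 0.35, and 1 of 10 Ehmt2Mat embryos was above the control median. The list was chosen with earlier results known. Tomm20, an import receptor of the outer membrane, had 121 to 518 CPM in controls (median 308) and 87.6 to 228 CPM in Ehmt2Mat embryos (median 120), with a log2 fold change of -1.49 (SE 0.24, adjusted p = 0.00062). Control 10 was the lowest control, as for Cox5a. Slc25a5, an ADP/ATP carrier, fell by 0.99 on the log2 scale (SE 0.21, adjusted p = 0.0044), with 9 of 10 Ehmt2Mat embryos below the lowest control. Vdac1, a channel of the outer membrane, rose from a median of 72.2 CPM to 176 CPM (log2 fold change 1.25, SE 0.27, adjusted p = 0.0048). The other calls were Slc25a4 and Vdac2, which fell, and Cs, citrate synthase, which rose. Without the embryos rich in Ovgp1 the adjusted p was 0.012 for Tomm20, 0.075 for Slc25a5 and 0.076 for Vdac1.

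**Figure D5:**
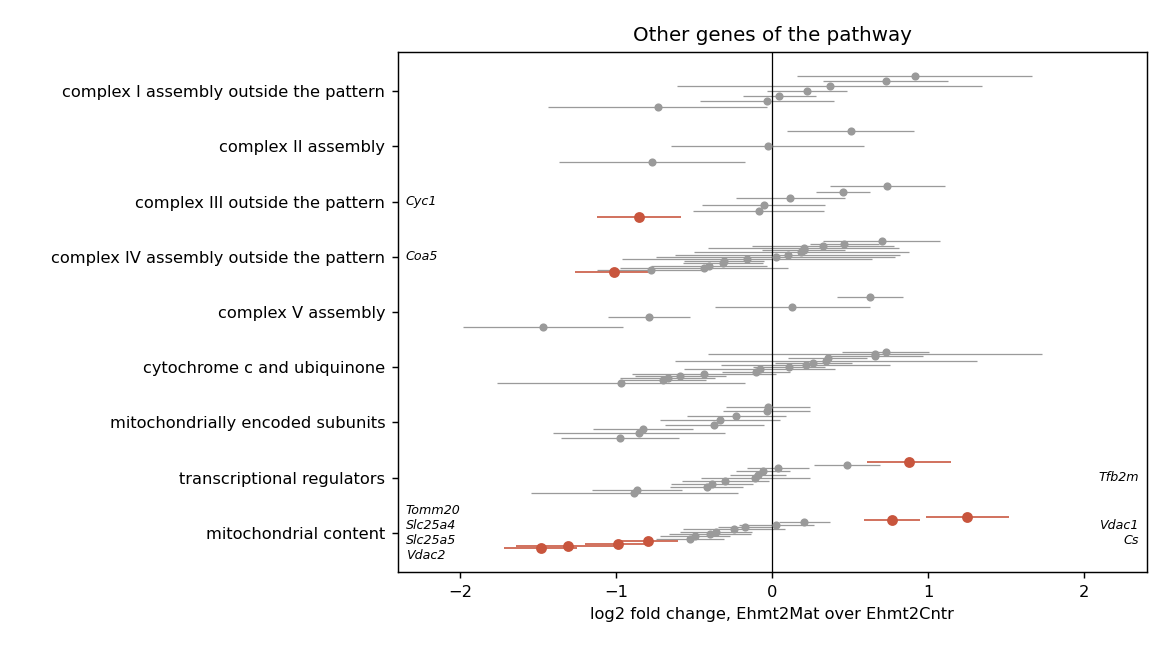
Log2 fold change of each tested gene of the pathway outside the members, Ehmt2Mat over Ehmt2Cntr, on the horizontal axis, grouped by list; points are estimates, bars are 1 SE, and red marks genes past an adjusted p of 0.05, whose symbols stand at the edge. All 8 mitochondrially encoded subunits lie below 0 without a call, while the mitochondrial content list has red points on both sides.

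Sequence shared with other genes bears on some members. Of the 102 members 23 have over 10% of their 50-base windows in another annotated transcript and 43 have none. For 6 members over 20% of exonic bases overlap another gene, among them Cox5a and Cox11. Uqcrfs1, Atp5mpl, Ndufaf6 and Cox7b2 share no window with another transcript, and Ndufa9 shares 2.53%.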

How the data were processed

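RNA of single 8C embryos was measured in 9 Ehmt2Cntr and 10 Ehmt2Mat embryos by single-end sequencing of 50 bp reads. The authors deposited raw counts per gene, with no normalization, and per the file headers these come from featureCounts 1.5.0 on exons of Ensembl release 82 (GRCm38), with a minimum overlap of 10 bases, without strand, and with reads on several genes or loci counted for each. The methods name Tophat2 with SeqMonk for gene expression, and bowtie restricted to uniquely mapping reads for repeats, while the headers list alignments to mm10 tagged m1. Which aligner made these counts is not stated. If reads were unique, genes with close copies are undercounted.

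With R 4.3.3 and edgeR 4.0.16, the deposited counts were compared (its filter on low counts, TMM, quasi-likelihood test, Benjamini-Hochberg adjustment over all genes tested, threshold 0.05) between Ehmt2Mat and Ehmt2Cntr, and between Ehmt2M/Z and Ehmt2M/+, without covariates. The tests ran with DESeq2 1.42.0 as an alternative and were tested on simulated data. CPM used TMM-scaled totals and RPKM the exon length in the files. Descriptions on the log2 scale used log2(CPM + 1). Alternatives covered the tool, scaling, filter, exon length, zygotic genotype, replicate block, leaving out each embryo, and leaving out embryos rich in Ovgp1. Embryo numbers did not pair the groups.

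The members and the lists were chosen with earlier results of these data known. Genes named were the members past the threshold, the most abundant member of each complex and of the assembly factors, fixed core subunits, the paralogs, and up to 3 called genes of each list; other genes were named after their values were seen. P-values measure the spread between embryos, whose litters are not given. Intervals are 2 SE, and the floor of 3 counts covers counting error only.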

Additional observations from a re-analysis of the deposited data

Results flagged for a closer look

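Within the 9 controls or the 10 Ehmt2Mat embryos, 11 of 92 sets of values had 1 embryo far from the rest by Dixon's criterion on log2(CPM + 1). The criterion flags about 1 in 20 sets of independent, normal values. The sets here include genes near 0, and sums beside genes that are part of them. An excess over 1 in 20 can therefore not be read from the count. Control 10 was far below the other controls for Cox5a, at 35.2 CPM with the next at 147 CPM, and for Tomm20, at 121 CPM with the next at 252 CPM. It had 370 CPM of Ovgp1, and the part of this in both values was not tested. Control 9 was the lowest control for Atp5a1 (420 CPM, next 645 CPM), for Cox6b1 (20.05 CPM, next 42.15 CPM) and for the complex V sum (2324 CPM, next 3240 CPM), and it was the highest for Atp5g2 (2.30 CPM, next 0.571 CPM). Control 2 was far below the others for Sdhb (2.25 CPM, next 23.2 CPM). Ehmt2Mat embryo 2 was the lowest for the complex I sum (778 CPM, next 1260 CPM). Embryo 10 of Ehmt2Mat was the highest for Cox6a2 (2.21 CPM, next 0.030 CPM), embryo 6 for Cox8c (2.30 CPM, next 0.636 CPM) and embryo 4 for Ndufa4l2 (0.030 CPM, the others at 0).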

How the results depend on the processing

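The count of members called higher was 2, against 7 with DESeq2, 1 with no filter on low counts, 4 with at least 10 counts in every embryo, 4 with totals without mitochondrial genes and 0 with the zygotic genotype held at +/-. The count called lower was 5, against 3 with no filter, 0 with the zygotic genotype held, and 2 without the embryos above 100 CPM of Ovgp1, an alternative chosen after seeing the data. In either direction 7.22% of members and 9.35% of all genes were called in the main test, and 14.4% and 15.1% with DESeq2. These were 3.96% and 5.67% with no filter, 12.5% and 19.1% with at least 10 counts, and 9.28% and 9.41% with totals without mitochondrial genes. They were 0% and 0.007% with the zygotic genotype held, and 5.155% and 2.69% without the Ovgp1-rich embryos. Fits without 1 embryo gave 2 to 5 higher and 3 to 7 lower, and called 7.495 to 10.83% of all genes. The lower count was 3 without control 1, 3 or 7 or Ehmt2Mat embryo 1, 2, 4 or 5. The higher count was 4 without control 3 and 5 without Ehmt2Mat embryo 2. Embryo numbers were shared between the groups, but same-numbered embryos did not deviate together (correlations -0.156 to 0.086 over 9 pairs, with 1 embryo closest to its own number). With the number as a replicate block 2 members were called higher and 2 lower, with or without removal of the slope on exon length. This is 4.124% of members, against 6.055% of all genes, or 5.932% with the slope removed. Among the called members Cox5a, Uqcrfs1 and Ndufa9 stayed past the threshold in 28 of 29 alternatives, all but the fixed zygotic genotype. Cox11 was called in 24 of 28 and Cox7b2 in 24 of 27 that gave it an adjusted p. Atp5mpl was called in 16 and Ndufaf6 in 10 of 29. No called member changed sign, but every alternative used embryos of the set that selected these members. Among the named genes signs changed only for uncalled ones. With no filter, Cox6a1 was at 0.0003, Ndufaf7 at 0.0013 and Ndufv1 at 0.0092. With the zygotic genotype held, Ndufa4 was at 0.32, Cycs at -0.12 and Cox8a at -0.0545, and without the Ovgp1-rich embryos Cox6a1 was at 0.17. Leaving out 1 embryo gave -0.1119 to 0.0522 for Cox6a1, -0.15 to 0.0506 for Ndufaf7, -0.1124 to 0.0971 for Ndufv1 and -0.0559 to 0.1506 for Sdha. The cause of these changes was not tested. The 0 calls between Ehmt2M/Z and Ehmt2M/+ stayed at 0 in every alternative. The median over members and the sums shifted by less than the spread between controls. Each summed log2 difference was itself smaller than that spread, so this limit cannot show that its direction held. Leaving out 1 embryo gave -0.0234 to 0.1125 for the median. The summed log2 difference was then -0.1094 to 0.0368 for complex I, -0.1181 to 0.0582 for complex II and -0.0531 to 0.1249 for complex IV. It was -0.0454 to 0.0567 for the assembly factors, -0.1354 to -0.0065 for complex III and 0.1395 to 0.2631 for complex V. Depth limits the members near the floor of 3 counts, Cox7b2 in controls among them.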
